A study of Mus musculus with 8 samples.

Results

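Smooth muscle contractile and actomyosin genes were followed in mouse bone marrow derived macrophage cultures by RNA sequencing. The group was named gene by gene and holds 33 genes, all of which were matched by Ensembl identifier to 1 row each of a table of 55421. They code for actins, myosin chains, tropomyosins and calponins, for the proteins that anchor actin filaments at the membrane, and for transcription factors that drive them. Values were available for 4 libraries labelled Baf60a KO and 4 labelled WT, all at day 7 of macrophage differentiation from primary marrow of C57 mice. Smarcd1 is the gene of Baf60a, which belongs to the SWI/SNF complexes that remodel chromatin, and the comparison sets the libraries labelled as its knockout against WT. The labels give neither the deleted part of the gene, the driver of the deletion, the age of the mice, nor whether replicates are different animals, so p-values measure only the spread between these libraries, which may be technical.

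In smooth muscle, calcium-activated myosin light chain kinase phosphorylates the myosin regulatory light chain, and myosin filaments then pull on actin filaments that are lined with tropomyosin, calponin and caldesmon. Most of the muscle-type genes are switched on by serum response factor (SRF), which binds CArG boxes in their promoters with the coactivator myocardin or with myocardin-related factors that sense actin monomers. Fibroblasts that become contractile switch on part of the same set, Acta2 and Tagln first of all, whereas macrophages move with the general actomyosin genes that nearly every cell uses. The 33 genes were therefore read in 3 classes: 11 that are used as smooth muscle markers, 7 muscle and mesenchymal genes with broader use, and 15 general actomyosin genes.

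The targeted gene Smarcd1 was at 10.5 ± 0.447 TPM in Baf60a KO and 14.8 ± 0.998 TPM in WT (SD, n = 4 each; log2 fold change -0.47, limma adjusted p = 0.00756). The Baf60a KO mean was thus 0.705 of the WT mean, so most of the transcript signal remained, and which part of the gene it comes from cannot be read from gene-level values. TPM is a relative measure divided by transcript length, so it can be compared between genes, but the read depth of each library is not known. The number of genes above a TPM of 1 ranged from 13727 to 14027. The libraries labelled WT replicates 3 and 4 stood apart with 12.0% and 12.2% of TPM in processed pseudogenes, against 6.78% to 8.38% in the other 6 libraries. Macrophage markers were present, with Cd68, a lysosomal membrane protein, at 1791 ± 35.7 TPM in Baf60a KO and 1472 ± 141 TPM in WT. Fibroblast collagen was about as abundant, with Col1a1 at 1873 ± 54.0 TPM in Baf60a KO and 1534 ± 76.1 TPM in WT, so the cultures labelled as macrophages held abundant stromal transcripts. Which cells carry the muscle genes was not tested, and in bulk RNA more cells of a type cannot be told apart from more RNA per cell.

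Of the 33 genes, 7 rose in Baf60a KO, 0 fell, 24 did not pass the test and 2 were too low to be tested. Rose and fell are used of genes with limma adjusted p under 0.05 over all 13933 genes tested, of which 5.61% were called in either direction, 4.40% higher and 1.21% lower. The rises were in Cnn1, Actg2, Acta2, Synpo2, Myl9, Mylk and Vcl. By class, 5 of the 9 smooth muscle markers tested rose, against 1 of 7 genes of broader muscle and mesenchymal use and 1 of 15 general actomyosin genes. The median log2 fold change was 0.33 for the smooth muscle markers, 0.15 for the broader class, 0.06 for the general class and 0.03 over all genes tested. The log2 fold change was above 0 for 24 of the 31 members tested, and for 57.5% of all genes tested. The difference between the classes was not tested.

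**Figure D1:**
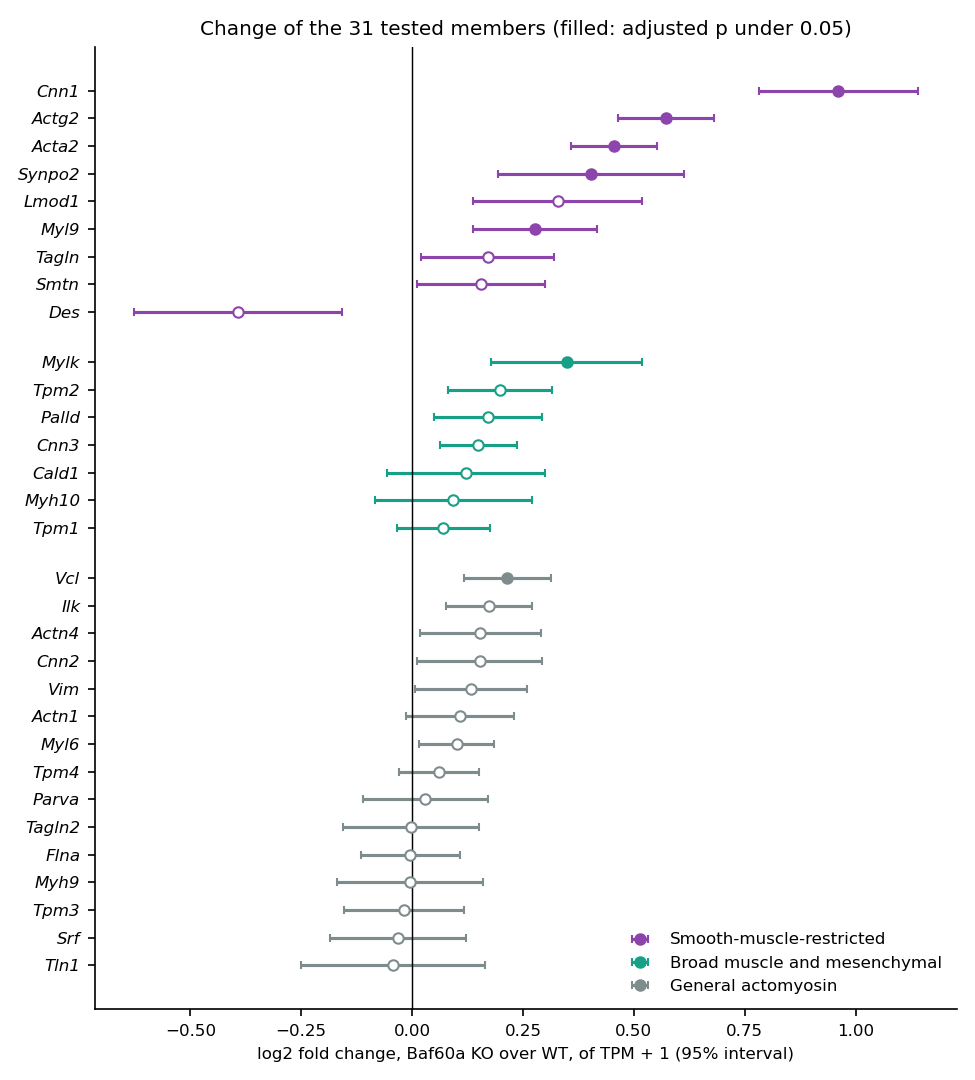
Log2 fold change of TPM + 1, Baf60a KO over WT, for the 31 members tested, by class, with 95% intervals from limma; filled points had adjusted p under 0.05 over all genes tested. The smooth muscle markers spread from -0.39 for Des to 0.96 for Cnn1, whereas the general actomyosin genes lie between -0.04 and 0.21.

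Both smooth muscle actins rose. Acta2 (chromosome 19, 34241090 to 34255590, minus strand, build mm10), the alpha actin of smooth muscle and of contractile fibroblasts, was at 1669.6, 1755, 1680 and 1694 TPM in Baf60a KO and at 1194, 1328, 1238 and 1203 TPM in WT. All 4 Baf60a KO libraries were above all 4 WT libraries (log2 fold change 0.45, SE 0.043, limma adjusted p = 0.00170). By mean TPM, Acta2 ranked 86 of 55421 genes in Baf60a KO and 124 in WT. Actg2 (chromosome 6, 83512905 to 83536265, minus strand), the gamma actin of gut and bladder muscle, was at 227.2, 240.4, 241.5 and 230.0 TPM in Baf60a KO and at 149, 163, 167 and 151 TPM in WT. Its groups did not overlap either (log2 fold change 0.57, SE 0.047, limma adjusted p = 0.000894). These genes lie on different chromosomes, and both rose. The ratio of Actg2 to Acta2 TPM was 0.136 to 0.144 in Baf60a KO and 0.123 to 0.135 in WT, without overlap.

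Since both actins code for nearly the same protein, their reads could in principle be shared. Aligned at their 3′ ends, the reading frames of Acta2 (1134 bases) and Actg2 (1131 bases) were 83.8% identical over 1131 bases, and the longest run without a difference was 29 bases, shorter than the 51-base reads. A stretch of 90 bases near the start of each frame, from GENCODE M21 transcripts (GRCm38), is shown to make this visible, with capitals at the 15 bases that differ.
Acta2, bases 34 to 123 of the reading frame: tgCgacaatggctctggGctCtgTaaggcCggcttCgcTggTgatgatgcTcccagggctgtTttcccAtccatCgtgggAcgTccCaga
Actg2, bases 31 to 120 of the reading frame: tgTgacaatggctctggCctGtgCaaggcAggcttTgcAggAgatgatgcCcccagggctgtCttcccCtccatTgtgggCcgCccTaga
Of the 51-base windows in its protein-coding transcripts, Actg2 shared 0% with transcripts of any other gene, and Acta2 shared 0.28%.

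Cnn1 (chromosome 9, 22099216 to 22109630, plus strand), the calponin of smooth muscle, which binds actin and damps myosin, had the largest fold change of the 31 genes tested. It was at 42.5, 38.5, 45.1 and 42.5 TPM in Baf60a KO and at 19.6, 21.5, 24.3 and 19.5 TPM in WT. The lowest Baf60a KO library was above the highest WT library, and the ratio of mean TPM was 1.99 (log2 fold change 0.96, SE 0.079, limma adjusted p = 0.000881). Over all genes tested it ranked 28 from the largest rise. Its paralogs did not pass the test. Cnn2, the calponin of leukocytes and other cells, was at 204 ± 14.1 TPM in Baf60a KO and 184 ± 11.3 TPM in WT (adjusted p = 0.189). Cnn3, the acidic calponin, was at 135 ± 3.98 TPM in Baf60a KO and 122 ± 3.52 TPM in WT (adjusted p = 0.0582). Cnn1 thus made up 11.1% ± 0.695 of the TPM of the 3 calponins in Baf60a KO and 6.49% ± 0.488 in WT.

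**Figure D2:**
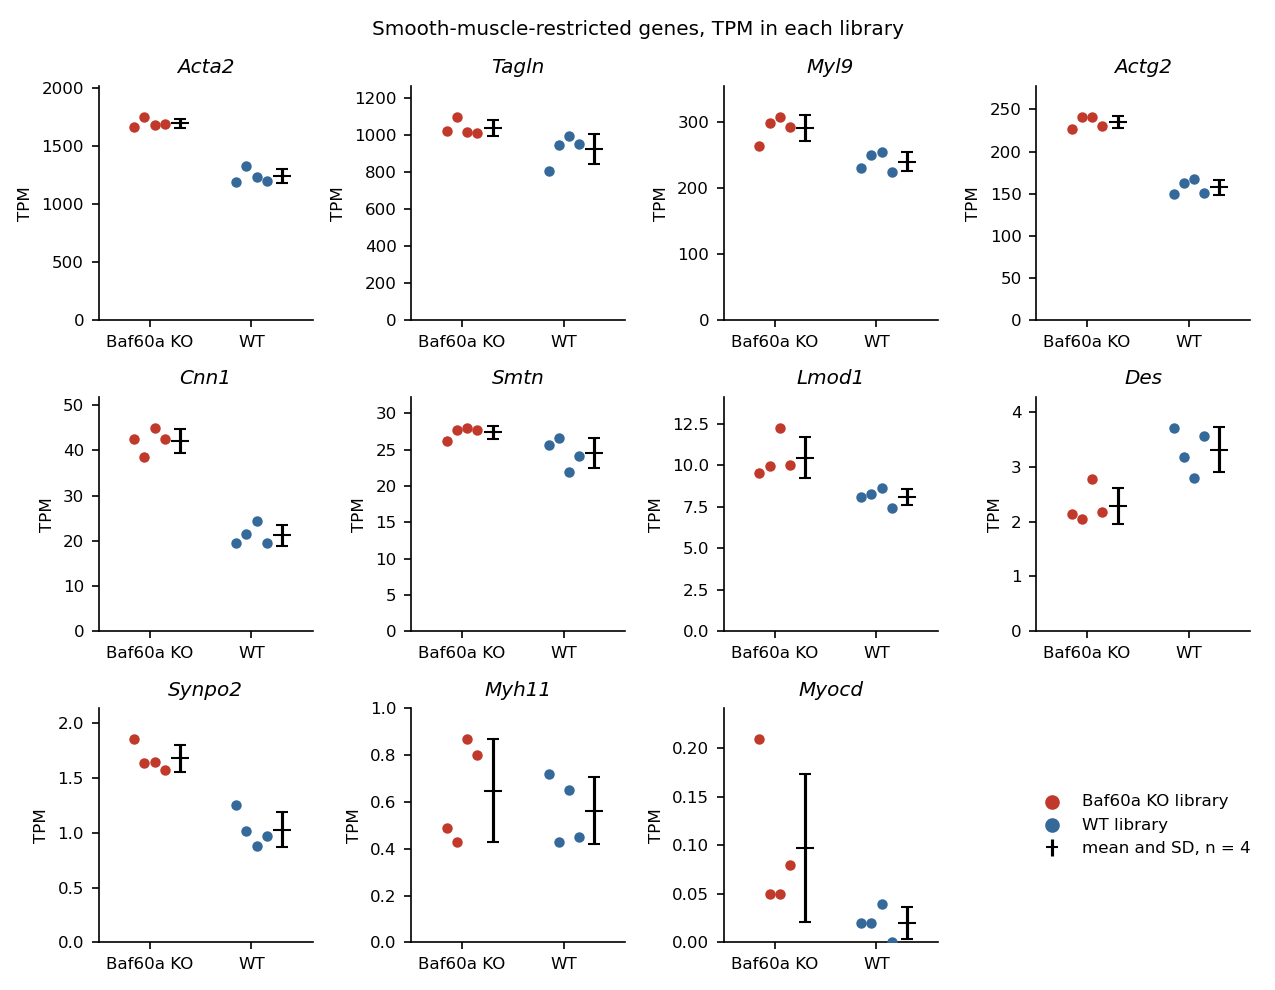
TPM of the 11 smooth muscle markers in each library, with 4 Baf60a KO libraries left and 4 WT libraries right in each panel, black bars for mean and SD, and axes that start at 0. Acta2, Actg2 and Cnn1 are separated by a gap between the groups, Des is higher in WT, and Myh11 overlaps.

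Of the myosin chains and their kinase, Myl9 and Mylk rose. Myl9 (chromosome 2, 156775420 to 156781658, plus strand), the regulatory light chain of smooth muscle myosin, was at 264, 299, 309 and 293 TPM in Baf60a KO and at 230.2, 250.3, 254.4 and 224.9 TPM in WT. The groups did not overlap (log2 fold change 0.28, SE 0.061, limma adjusted p = 0.0378). Mylk (chromosome 16, 34745210 to 35002420, plus strand), the kinase that phosphorylates this light chain, was at 52.9, 46.9, 59.7 and 53.2 TPM in Baf60a KO and at 43.5, 38.2, 43.0 and 40.9 TPM in WT. Here too the groups were apart (log2 fold change 0.35, SE 0.075, limma adjusted p = 0.0360). Neither call was stable when 1 library was left out in turn, in fits that hold fewer samples. Each gene kept its call in 2 of 8 such fits, with limma adjusted p up to 0.109 for Myl9 and 0.1 for Mylk. Both maxima came without Baf60a KO replicate 4.

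The smooth muscle myosin heavy chain itself was close to absent. Myh11, the marker of mature smooth muscle, was at 0.49, 0.43, 0.87 and 0.80 TPM in Baf60a KO and at 0.72, 0.43, 0.65 and 0.45 TPM in WT, too low to be tested. The groups overlapped. The non-muscle heavy chains were abundant and did not pass: Myh9 was at 336 ± 17.8 TPM in Baf60a KO and 338 ± 34.0 TPM in WT (95% interval of the log2 fold change from -0.17 to 0.16). Myh10 was at 22.3 ± 1.25 TPM in Baf60a KO and 20.9 ± 2.29 TPM in WT. Myh9 made up 93.6% ± 0.111 of the TPM of these 3 heavy chains in Baf60a KO and 94.0% ± 0.144 in WT, and Myh11 made up 0.181% ± 0.0649 in Baf60a KO and 0.160% ± 0.0503 in WT. Myl6, the essential light chain that muscle and non-muscle myosin share, was at 2140 ± 34.9 TPM in Baf60a KO and 1997 ± 72.3 TPM in WT (adjusted p = 0.159).

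Of the other filament-bound markers, Synpo2 rose and Tagln, Smtn and Lmod1 did not pass. Synpo2 (chromosome 3, 123076519 to 123236149, minus strand), or myopodin, which bundles actin at the Z-disc, was at 1.86, 1.64, 1.65 and 1.57 TPM in Baf60a KO and at 1.25, 1.02, 0.88 and 0.97 TPM in WT (log2 fold change 0.40, SE 0.092, limma adjusted p = 0.0418). The groups did not overlap, and the levels are near the TPM of 1 that the filter required in 4 libraries. Without WT replicates 3 and 4 its adjusted p was 0.125, and with 1 library left out it kept the call in 1 of 8 fits, with adjusted p up to 0.110 without Baf60a KO replicate 1. Tagln, transgelin or SM22, an early marker of smooth muscle and of contractile fibroblasts, was at 1025, 1101, 1017 and 1011 TPM in Baf60a KO and at 806, 948, 994 and 952 TPM in WT. All Baf60a KO libraries were above all WT libraries, with 1011 and 994 TPM at the closest, and the change did not pass (log2 fold change 0.17, SE 0.066, limma adjusted p = 0.173). Its paralog Tagln2, the transgelin of blood cells, was at 640.1 ± 34.6 TPM in Baf60a KO and 643 ± 56.1 TPM in WT.

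Lmod1, a leiomodin that starts new actin filaments in smooth muscle, was at 9.54, 9.97, 12.26 and 9.98 TPM in Baf60a KO and at 8.06, 8.27, 8.60 and 7.41 TPM in WT. The groups did not overlap, and it missed the threshold (log2 fold change 0.33, SE 0.083, limma adjusted p = 0.0572). Lmod1 passed in 2 of 17 alternative fits. These were the fits with TPM over 5 (limma adjusted p = 0.0497) and with TPM rescaled over protein-coding genes (limma adjusted p = 0.0336). Smtn, smoothelin, was at 26.1, 27.7, 28.0 and 27.7 TPM in Baf60a KO and at 25.6, 26.5, 21.9 and 24.1 TPM in WT, with overlap (adjusted p = 0.191). Des ran the other way from the rest of the markers. This gene of desmin, the intermediate filament of muscle, was at 2.14, 2.05, 2.77 and 2.17 TPM in Baf60a KO and at 3.71, 3.17, 2.79 and 3.56 TPM in WT. Every Baf60a KO library was below every WT library, with 2.77 and 2.79 TPM at the closest (log2 fold change -0.39, SE 0.103, limma adjusted p = 0.0627). Under median-of-ratios scaling (-0.42, adjusted p = 0.0443) and with TPM rescaled over protein-coding genes (-0.42, adjusted p = 0.0219) the lower level of Des passed the threshold.

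Without overlap between the groups, 14 of the 31 genes tested were higher in Baf60a KO and 1, Des, was lower, against 11.9% and 3.96% of all genes tested. The share of higher genes was largest among the smooth muscle markers, at 7 of 9, then 4 of 7 in the broader class and 3 of 15 in the general class.

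The tropomyosins, which lie along the actin filament, did not pass. Tpm1 was at 812 ± 27.0 TPM in Baf60a KO and 773 ± 40.0 TPM in WT. Tpm2, the beta tropomyosin typical of muscle, was at 421 ± 17.6 TPM in Baf60a KO and 367 ± 21.0 TPM in WT, with no overlap (log2 fold change 0.20, adjusted p = 0.0599). Tpm3 was at 412 ± 7.05 TPM in Baf60a KO and 419 ± 34.5 TPM in WT, and Tpm4 at 618 ± 21.9 TPM in Baf60a KO and 593 ± 18.2 TPM in WT. Tpm1 and Tpm2, both of the broader class, made up 54.5% ± 0.743 of the TPM of the 4 genes in Baf60a KO and 53.0% ± 0.856 in WT. Cald1, caldesmon, an actin-binding brake on myosin, was at 401 ± 17.1 TPM in Baf60a KO and 370.04 ± 43.0 TPM in WT (adjusted p = 0.407). Palld, palladin, a scaffold of actin bundles, was at 81.1 ± 2.24 TPM in Baf60a KO and 72.1 ± 4.87 TPM in WT, with no overlap (adjusted p = 0.102).

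**Figure D3:**
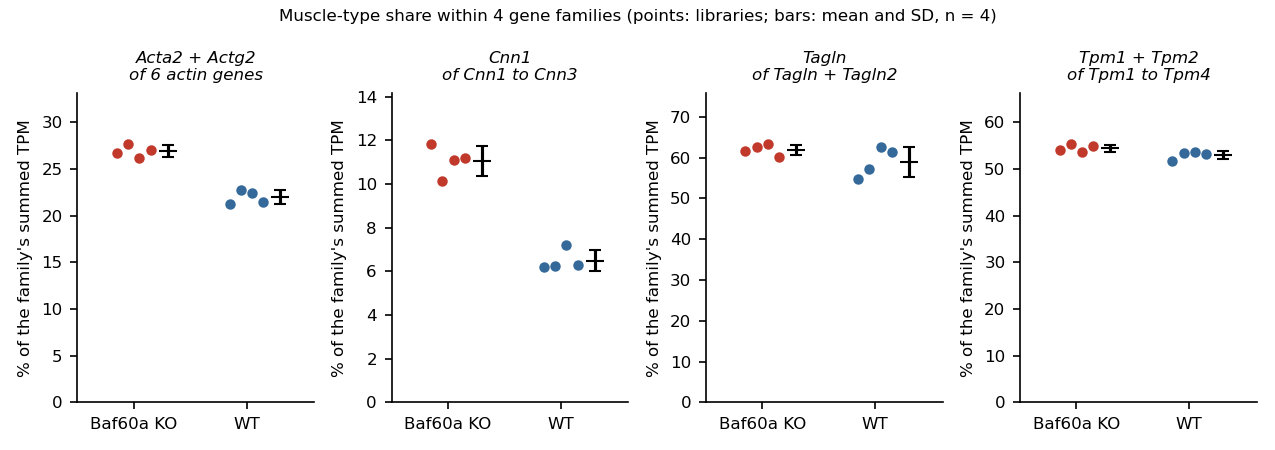
Share of each family's summed TPM that came from the named members, by library (Baf60a KO left, WT right), with mean and SD, n = 4. The named members are smooth muscle markers except in the tropomyosins, where Tpm1 and Tpm2 are of the broader class. The 6 actin genes are Acta2, Actg2, Acta1, Actc1, Actb and Actg1. The calponin and actin shares separate the groups by a wide gap, whereas the transgelin shares overlap and the tropomyosin shares nearly touch.

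The muscle-type share of actin transcripts was 26.9% ± 0.622 in Baf60a KO and 22.0% ± 0.730 in WT. In single libraries it was 26.8%, 27.6%, 26.1% and 27.1% in Baf60a KO and 21.2%, 22.8%, 22.4% and 21.5% in WT. For transgelins the share from Tagln was 61.9% ± 1.33 in Baf60a KO and 59.0% ± 3.67 in WT, and the groups overlapped. These shares are formed within a library, so they do not depend on the scaling between libraries.

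The general actomyosin genes are the ones on which macrophages rely for crawling, spreading and phagocytosis. Vcl (chromosome 14, 20929398 to 21033676, plus strand), vinculin, which ties actin to integrin adhesions, was the 1 that rose. It was at 79.9, 77.1, 84.7 and 80.0 TPM in Baf60a KO and at 66.6, 71.6, 68.1 and 70.2 TPM in WT. The groups were apart (log2 fold change 0.21, SE 0.043, limma adjusted p = 0.0300), and the call held in 2 of 8 fits with 1 library left out, with adjusted p up to 0.0892 without Baf60a KO replicate 4. Exons of Ap3m1, on the opposite strand, cover 25.5% of the exon bases of Vcl, and Ap3m1 averaged 60.6 TPM over the 8 libraries. The labels do not say that strand was used in quantification, so reads from this overlap could belong to either gene.

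Ilk, integrin-linked kinase, an adaptor between integrins and actin, was at 186 ± 7.87 TPM in Baf60a KO and 164 ± 5.21 TPM in WT, with no overlap (log2 fold change 0.17, adjusted p = 0.0512). Exons of Taf10 on the opposite strand cover 76.7% of its exon bases, and Taf10 averaged 191 TPM. Parva, parvin alpha, its partner at adhesions, was at 53.3 ± 3.04 TPM in Baf60a KO and 52.3 ± 3.84 TPM in WT. The actin crosslinkers Actn1 (318 ± 13.4 TPM in Baf60a KO and 296 ± 19.0 TPM in WT), Actn4 (345 ± 9.14 TPM in Baf60a KO and 311 ± 26.1 TPM in WT) and Flna (346 ± 11.4 TPM in Baf60a KO and 347 ± 21.1 TPM in WT) did not pass. Tln1, talin, which activates integrins, was at 170.3 ± 12.8 TPM in Baf60a KO and 176 ± 20.8 TPM in WT. Vim, the intermediate filament protein vimentin, was the most abundant of the 33 genes, at 2464 ± 86.7 TPM in Baf60a KO and 2250 ± 154 TPM in WT (log2 fold change 0.13, adjusted p = 0.198). For Flna the 95% interval of the log2 fold change ran from -0.12 to 0.11, and for Actn4 it ran from 0.02 to 0.29.

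Sequence copies limit some of these values. Of the 51-base windows in its transcripts, Tpm3 shared 39.7% with Tpm3-rs7, Myl6 shared 16.4% with 5 other genes, 3 of them the processed pseudogenes Gm5526, Gm10080 and Gm8894, Cnn3 shared 13.6%, Tpm4 shared 11.9% with Gm7809 and Ilk shared 11% with Gm6263. Cnn1, Actg2, Myl9, Mylk and Vcl shared 0%, and Synpo2 0.0231%. Tagln overlaps the antisense gene Gm48529 over 62.4% of its exon bases, and that antisense gene averaged 3.12 TPM.

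Srf, the transcription factor that binds CArG boxes, was at 34.3, 37.3, 37.5 and 38.4 TPM in Baf60a KO and at 40.3, 40.2, 33.5 and 37.1 TPM in WT. The groups overlapped (log2 fold change -0.03, 95% interval from -0.19 to 0.12, limma adjusted p = 0.848). Myocd, the muscle-specific coactivator myocardin, was listed at 0.21, 0.05, 0.05 and 0.08 TPM in Baf60a KO and at 0.02, 0.02, 0.04 and 0 TPM in WT. Values are given to 2 decimals, and Myocd was too low to be tested. All Baf60a KO values were above all WT values, but 0.05 and 0.04 TPM, the closest, differ only in the last decimal. Of 5 partners of SRF (Mrtfa, Mrtfb, Elk1, Elk3 and Elk4) 0 passed in the limma fit, against 5.61% of all genes tested. Their median log2 fold change was 0.17. Mrtfa, a coactivator released by actin polymerization, was at 21.8 ± 1.33 TPM in Baf60a KO and 19.2 ± 1.54 TPM in WT (adjusted p = 0.170), and Elk3 was at 33.3 ± 1.64 TPM in Baf60a KO and 29.4 ± 2.14 TPM in WT (adjusted p = 0.139).

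Promoter windows were available for 28 of the 33 genes, 34 windows in all, from RefSeq (GRCm38.p6); Tagln, Actg2, Myh11, Myocd and Parva had none. The CArG box was searched in the 250 bases before each start. The motif reads the same on both strands, so 1 search covered both. It was found in 5 of the 34 windows (14.7%), against 1.47% of all 32851 windows, and the genes were Cnn2, Myl6, Myl9, Srf and Vcl. With 1 letter off allowed, 13 of the 34 windows (38.2%) held a site, against 18.6% of all windows. A match describes the letters and not binding. The 28 genes were 7 smooth muscle markers, 7 broader genes and 14 general genes. In that order, 1, 0 and 4 of them held a CArG box, and 3, 3 and 6 with 1 letter off allowed. Mylk and Synpo2, which also rose, held no site in their windows and are not shown. Windows of 5 genes are shown, 4 that rose and Srf, with capitals on CArG boxes with at most 1 letter off.
Acta2, chr19:34255374-34255623, minus strand: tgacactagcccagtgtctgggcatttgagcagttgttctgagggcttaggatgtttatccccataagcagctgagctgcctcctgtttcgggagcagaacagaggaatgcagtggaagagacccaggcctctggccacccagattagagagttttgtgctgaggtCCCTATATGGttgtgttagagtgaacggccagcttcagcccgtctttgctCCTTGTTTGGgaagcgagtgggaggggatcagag
Cnn1, chr9:22099003-22099252, plus strand: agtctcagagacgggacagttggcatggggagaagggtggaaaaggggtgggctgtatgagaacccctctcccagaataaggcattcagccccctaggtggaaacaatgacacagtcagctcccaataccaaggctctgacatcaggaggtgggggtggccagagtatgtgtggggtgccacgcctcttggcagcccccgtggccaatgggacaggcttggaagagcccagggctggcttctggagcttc
Myl9, chr2:156775214-156775463, plus strand: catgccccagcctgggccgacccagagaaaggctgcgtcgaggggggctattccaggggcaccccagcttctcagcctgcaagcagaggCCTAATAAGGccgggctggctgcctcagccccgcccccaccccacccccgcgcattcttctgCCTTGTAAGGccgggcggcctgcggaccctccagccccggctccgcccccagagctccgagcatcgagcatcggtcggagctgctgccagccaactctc
Vcl, chr14:20929148-20929397, plus strand: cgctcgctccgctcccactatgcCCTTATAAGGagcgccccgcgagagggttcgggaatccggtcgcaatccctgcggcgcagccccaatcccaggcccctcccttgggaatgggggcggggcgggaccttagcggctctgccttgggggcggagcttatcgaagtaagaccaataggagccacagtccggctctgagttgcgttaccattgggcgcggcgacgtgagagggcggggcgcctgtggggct
Srf, chr17:46556163-46556412, minus strand: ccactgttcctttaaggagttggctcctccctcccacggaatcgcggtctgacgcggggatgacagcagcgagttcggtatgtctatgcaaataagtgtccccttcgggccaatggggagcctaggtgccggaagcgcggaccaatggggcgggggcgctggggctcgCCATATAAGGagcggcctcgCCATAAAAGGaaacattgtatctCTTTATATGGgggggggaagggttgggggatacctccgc
Acta2 held 2 sites, which begin 84 and 34 bases before the RefSeq start and are each 1 letter off. Myl9 held a CArG box at 161 bases and a site 1 letter off at 99 bases, and Vcl held a CArG box at 227 bases before the start. Srf, which did not pass the test, held CArG boxes at 82 and 62 bases and a site 1 letter off at 39 bases. Cnn1, the gene with the largest rise, held none in this window, which says only that these letters are not within those 250 bases.

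Among the wider actin and adhesion genes, the share that rose was 6.67% for the actin monomer and filament genes and 10.5% for the focal adhesion partners, against 4.40% of all genes tested. Of 15 actin monomer and filament genes, 1 rose and 14 did not pass, with a median log2 fold change of 0.07. Gsn, gelsolin, which severs actin filaments, was at 407 ± 9.65 TPM in Baf60a KO and 327 ± 7.33 TPM in WT (log2 fold change 0.32, limma adjusted p = 0.00324). Tmsb4x, which holds actin monomers, was at 4153 ± 113 TPM in Baf60a KO and 3914 ± 210 TPM in WT, and Actb was at 2826 ± 64.3 TPM in Baf60a KO and 2581 ± 59.8 TPM in WT (adjusted p = 0.0666). Of 19 focal adhesion partners tested, 2 rose and 17 did not pass, with a median of 0.10. The risers were Lims2, the PINCH2 adaptor that binds Ilk (10.1 ± 1.11 TPM in Baf60a KO and 7.50 ± 0.723 TPM in WT, limma adjusted p = 0.0458), and Tln2, the talin of striated muscle and other tissues (10.8 ± 0.652 TPM in Baf60a KO and 8.14 ± 0.664 TPM in WT, limma adjusted p = 0.0276).

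Some fibroblast and pericyte markers rose in Baf60a KO along with the smooth muscle markers. The share of all genes tested that rose was 4.40%. Of 14 fibroblast markers tested, 6 rose (42.9%) and 8 did not pass, with a median log2 fold change of 0.26. The risers were Thy1 (log2 fold change 1.06), Postn (0.46), Pdgfrb (0.43), Loxl1 (0.42), Col3a1 (0.34) and Col1a1 (0.29), by limma with adjusted p between 0.000808 and 0.0270. The summed TPM of all 15 fibroblast markers lay between 7437 and 7760 in Baf60a KO and between 6150 and 6922 in WT. The summed TPM of the smooth muscle markers lay between 3269 and 3476 in Baf60a KO and between 2439 and 2750 in WT. Of 3 pericyte markers tested, Mcam (15.4 ± 1.69 TPM in Baf60a KO and 9.72 ± 0.718 TPM in WT) and Notch3 (9.01 ± 0.479 TPM in Baf60a KO and 6.52 ± 0.645 TPM in WT) rose, Kcnj8 did not pass (2.05 ± 0.438 TPM in Baf60a KO and 1.42 ± 0.334 TPM in WT, adjusted p = 0.223), and Rgs5, Cspg4 and Abcc9 were below 1 TPM in every library. The summed TPM of all 6 pericyte markers lay between 24.8 and 30.0 in Baf60a KO and between 17.6 and 21.6 in WT. The fibroblast markers Lum, at 0.12 to 0.31 TPM in Baf60a KO and 0.20 to 0.58 TPM in WT, and Dcn, at 3.96 ± 0.610 TPM in Baf60a KO and 5.92 ± 2.36 TPM in WT, were low. The part of stromal cells in the rise of the muscle genes was not tested.

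**Figure D4:**
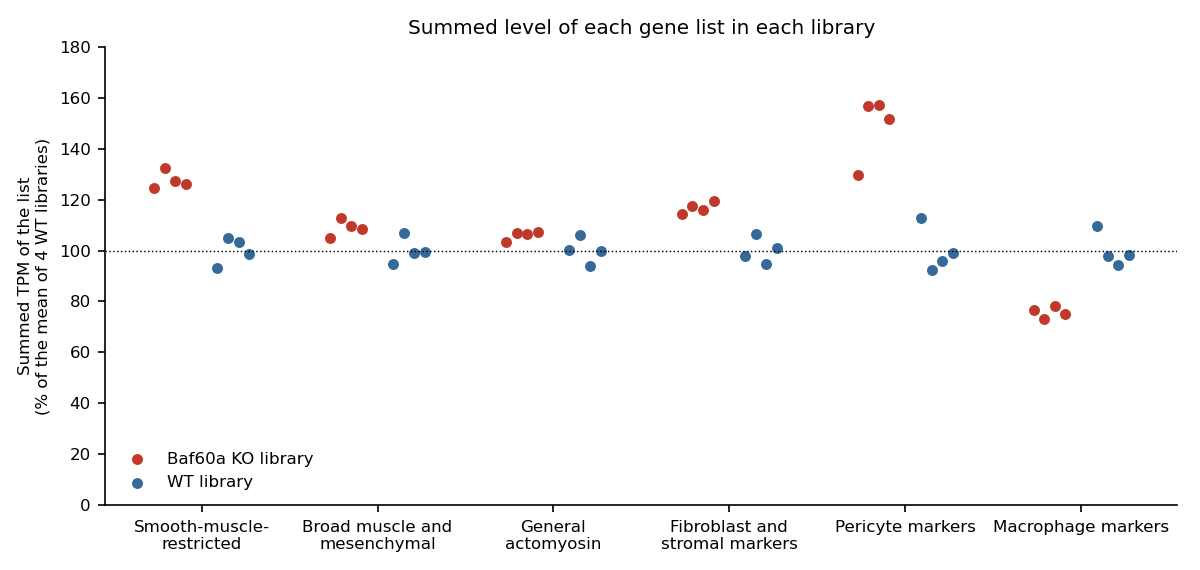
Summed TPM of each gene list in each library, as a percentage of the mean of the 4 WT libraries (y axis from 0), with Baf60a KO libraries left and WT libraries right in each column. Smooth muscle, fibroblast and pericyte sums are higher in all 4 Baf60a KO libraries, the general actomyosin sums overlap, and the macrophage sum is lower, a sum in which Lyz2 alone fell to 1927 TPM in Baf60a KO, against 3993 TPM in WT.

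Ratios to the 6 fibroblast markers that rose were formed within each library, as a description. These markers were picked because they rose in these data, which by itself lowers such ratios in Baf60a KO. Acta2 and Cnn1 are themselves among the genes that rose, which by itself raises the ratios. Each ratio thus restates fold changes already given and is not a separate test. Col1a2, a fibroblast marker that did not pass (log2 fold change 0.20, limma adjusted p = 0.0532), was chosen after its values were seen. Against Col1a2 the ratio of Acta2 was 0.913 to 0.994 in Baf60a KO and 0.778 to 0.847 in WT. The ratio of Acta2 to Col1a1 TPM was 0.908 ± 0.0304 in Baf60a KO and 0.810 ± 0.0532 in WT, with 0.874 as the lowest Baf60a KO value and 0.865 as the highest WT value. Against the other markers that rose, the ratio of Acta2 was not higher without overlap. Its ratio to Col3a1 was 3.79 to 4.64 in Baf60a KO and 3.74 to 4.23 in WT, and its ratio to Postn was 5.42 to 6.20 in Baf60a KO and 5.75 to 5.95 in WT. Its ratios to Pdgfrb (43.5 to 47.0 in Baf60a KO and 44.9 to 45.9 in WT) and Loxl1 (15.5 to 18.7 in Baf60a KO and 16.4 to 18.3 in WT) overlapped too. Relative to Thy1, Acta2 was lower in Baf60a KO (202 to 251 in Baf60a KO and 360.2 to 433 in WT). For Cnn1 the ratio was higher without overlap against 5 of the 6 markers. Its ratio to Col1a1 was 0.0225 ± 0.00151 in Baf60a KO and 0.0139 ± 0.00215 in WT, and its ratio to Postn, the closest, was 0.119 to 0.166 in Baf60a KO and 0.0933 to 0.115 in WT. The exception was Thy1, where the ratio of Cnn1 was 4.68 to 6.31 in Baf60a KO and 5.84 to 8.51 in WT. The ratio of the summed smooth muscle markers to the summed fibroblast markers did overlap, at 0.427 to 0.455 in Baf60a KO and 0.384 to 0.441 in WT. Tagln went the other way against Acta2, with a ratio of Tagln to Acta2 TPM of 0.611 ± 0.0129 in Baf60a KO and 0.746 ± 0.0612 in WT. The lowest WT ratio, 0.676, was above the highest Baf60a KO ratio, 0.627.

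Markers of other cell types were read beside these. Among all genes tested, 4.40% rose and 1.21% fell. Of 14 striated muscle markers 11 were below 1 TPM in all libraries, and 0 of the 3 tested passed by limma; Tnnt1 was at 1.89 ± 0.808 TPM in Baf60a KO and 2.21 ± 1.09 TPM in WT, and Acta1, the skeletal actin, at 1.33 ± 0.503 TPM in Baf60a KO and 1.40 ± 0.132 TPM in WT. Of 6 endothelial markers tested, Pecam1 rose (11.8 ± 1.57 TPM in Baf60a KO and 7.50 ± 0.546 TPM in WT, limma adjusted p = 0.0144), Egfl7 was at 17.5 ± 2.22 TPM in Baf60a KO and 14.3 ± 1.60 TPM in WT, and Cdh5 at 14.9 ± 1.78 TPM in Baf60a KO and 10.7 ± 1.72 TPM in WT (adjusted p = 0.0604). The summed endothelial markers overlapped, at 53.4 to 64.4 TPM in Baf60a KO and 45.0 to 56.5 TPM in WT. Of 3 platelet markers tested 0 passed by limma; Pf4, which macrophages also express, was at 1279 ± 185 TPM in Baf60a KO and 1822 ± 315 TPM in WT (adjusted p = 0.0824), and Itga2b was at 1.85 ± 0.217 TPM in Baf60a KO and 2.45 ± 0.903 TPM in WT. Of 10 macrophage markers 3 rose, 1 fell and 6 did not pass. C1qa (log2 fold change 0.66), Itgam (0.44) and Cd68 (0.29) rose and Lyz2 fell (-1.05). The median log2 fold change of the 10 markers was 0.26, and 8 were above 0. Their summed TPM lay between 4615 and 4933 in Baf60a KO and between 5957 and 6921 in WT. Within that sum, Lyz2 was at 1927 TPM in Baf60a KO and 3993 TPM in WT.

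Across fits, the 3 leading genes kept their calls. Cnn1, Actg2 and Acta2 were called in all 17 alternatives, with log2 fold changes from 0.92 to 1.03 for Cnn1, from 0.54 to 0.60 for Actg2 and from 0.42 to 0.49 for Acta2. The other 4 genes that rose lost the call in at least 1 alternative, Myl9 in 11 of 17, Mylk in 10 of 17, Vcl in 8 of 17 and Synpo2 in 11 of 16. The number of members called, 7 as reported, was 3 without WT replicates 3 and 4. It was 3 when Baf60a KO replicate 3, Baf60a KO replicate 4 or WT replicate 4 was left out, and 4 when Baf60a KO replicate 1, Baf60a KO replicate 2 or WT replicate 2 was left out.

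**Figure D5:**
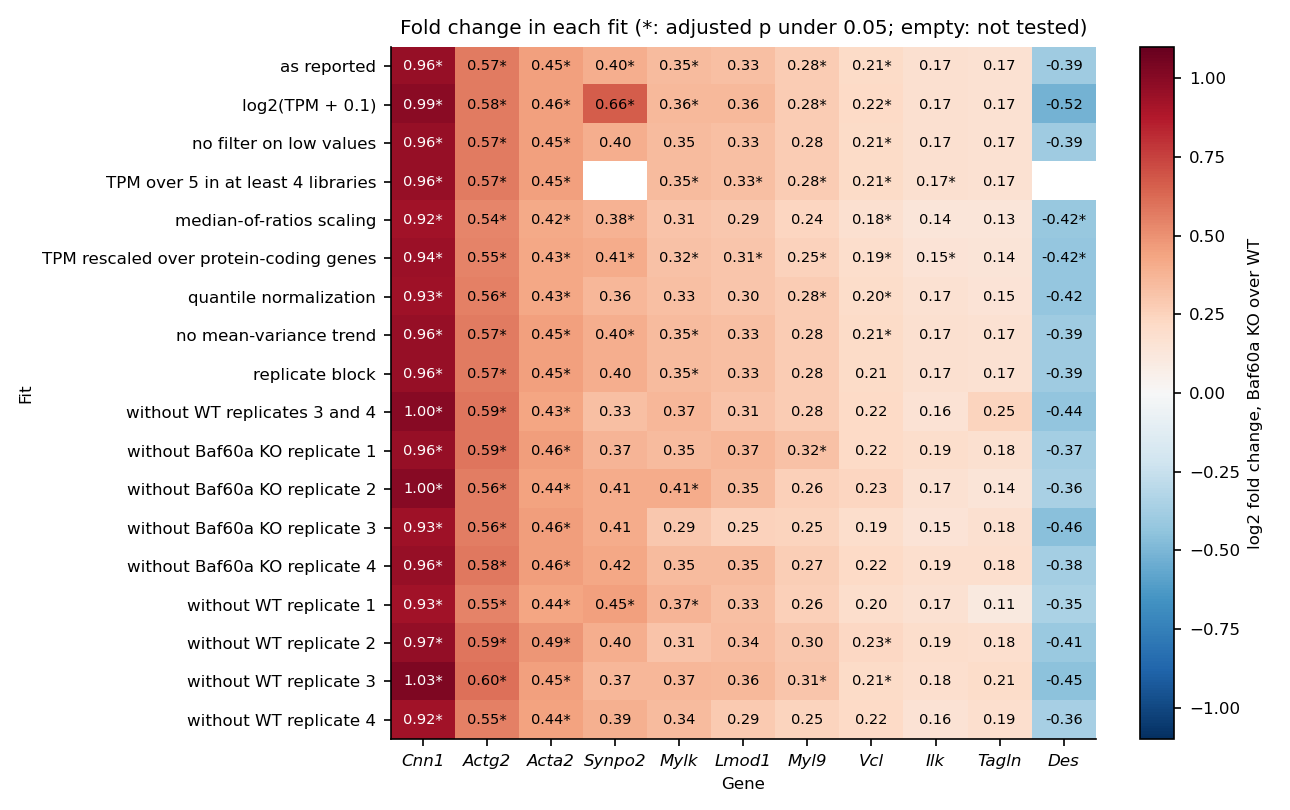
Log2 fold change, Baf60a KO over WT, of 11 members (columns) in the fit as reported and in 17 alternatives (rows), with an asterisk where limma adjusted p was under 0.05; red is higher in Baf60a KO and blue lower. Cnn1, Actg2 and Acta2 carry an asterisk in every row, and the sign of all 11 genes is the same in every fit that tested them.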

How the data were processed

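Total RNA of 8 libraries was column-purified, prepared with a NEBNext Ultra kit and sequenced as read pairs of 51 bases, per the labels' protocols. The authors deposited gene-level TPM, which sums to 1000000 in each library. Per the submitters' processing notes, bcl2fastq and Salmon 1.2.0 were used with build mm10; no source used here gives the annotation, mapping options or strand setting. TPM is relative, so a rise of abundant genes lowers the values of others, and without counts no interval for counting error can be given.

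Identifiers were matched to GENCODE M21 (GRCm38, the assembly of mm10), which named 55240 of 55421; 181 had no match. The 13933 genes whose TPM exceeded 1 in 4 or more libraries entered 1 limma fit of log2(TPM + 1), which used a mean-variance trend and Benjamini-Hochberg adjustment over all of them (limma 3.58.1, R 4.3.3). Fold changes on this scale understate the change of low genes. Every adjusted p comes from this fit unless an alternative is named. Only the fit itself was run on simulated data, which had independent normal errors. All 33 members are named, with each library's value for smooth muscle markers and called genes; of every other list, up to 6 called genes by smallest adjusted p are named, or the 2 most abundant where fewer than 2 passed. Genes named outside these are Lum, Dcn, Col1a2, Kcnj8, Rgs5, Cspg4 and Abcc9, chosen after their values were seen. The result of 1 further list is not reported here. The members, lists, ratios and the alternative without WT replicates 3 and 4 were chosen with earlier results of these data known. Alternatives changed the pseudocount, filter, scaling, variance trend, replicate block and libraries included.

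Promoter windows came from RefSeq. Reading frames were the longest open frames of GENCODE M21 transcripts, and shared windows were counted between transcripts of different genes.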

Additional observations from a re-analysis of the deposited data

Results flagged for a closer look

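In 4 of the 66 sets of 4 libraries examined (33 genes in each of the 2 groups), 1 library stood apart from the other 3, with a gap to its nearest neighbour that passed Dixon's 95% limit as a share of the group's range. Chance gives about 1 in 20 such groups. Tagln was at 1100.68 TPM in Baf60a KO replicate 2, with the next library at 1025.23 TPM. Des was at 2.77 TPM in Baf60a KO replicate 3, with the next library at 2.17 TPM, and this library is the one that nearly meets the lowest WT library. Lmod1 was at 12.26 TPM in Baf60a KO replicate 3, with the next library at 9.98 TPM. Parva was at 57.83 TPM in Baf60a KO replicate 2, with the next library at 52.48 TPM. None of these 4 genes passed the test as reported.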

How the results depend on the processing

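Of the 31 members tested, 24 kept their sign in each of the 17 alternatives that tested them. The 7 that changed sign somewhere were not called in any. The count of all genes called, 782 as reported, was 364 with no filter, 1337 with TPM rescaled over protein-coding genes, 209 with the replicate block, 372 without WT replicates 3 and 4, and 156 to 679 with 1 library left out. Replicate numbers did not pair the libraries (correlations of same-numbered deviations from -0.113 to 0.0124), so the block is given here alone; no library correlated best with its own number. Higher against lower calls split 613 to 169 as reported, 503 to 406 under median-of-ratios scaling, 849 to 488 over protein-coding genes and 440 to 254 under quantile normalization. In that order, these 3 scalings moved the median log2 fold change of the genes tested in each fit by -0.035, -0.014 and -0.026.

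Members called higher, 7 as reported, were 4 with no filter, 4 with the replicate block, 3 without WT replicates 3 and 4, and 3 to 5 with 1 library left out. They were 5 under median-of-ratios scaling, 5 under quantile normalization and 6 with no mean-variance trend. They were 8 with TPM over 5 and 9 with TPM rescaled over protein-coding genes. Members called lower, 0 as reported, were 1 (Des) under median-of-ratios scaling and 1 over protein-coding genes. Smooth muscle markers called, 5 as reported, were 3 in each of the fits with no filter, with the block and without WT replicates 3 and 4, and 3 to 4 with 1 library left out. With TPM rescaled over protein-coding genes 7 were called, among them Lmod1 and, as the lower one, Des. Under median-of-ratios scaling 5 were called, with Des as the lower one, and Myl9 lost its call (limma adjusted p = 0.0707). Broader muscle genes called, 1 as reported, were 0 with no filter, under median-of-ratios scaling, under quantile normalization and without WT replicates 3 and 4, and 0 to 1 with 1 library left out. General genes called, 1 as reported, were 2 (Vcl and Ilk) with TPM over 5 and over protein-coding genes, 0 with the block and without WT replicates 3 and 4, and 0 to 1 with 1 library left out. With no filter 27510 genes were tested in place of 13933, and fits without libraries hold fewer samples; the cause was not tested for the others.

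Sign changes were all among genes not called. With 1 library left out, log2 fold changes ran from -0.040 to 0.046 for Tagln2, from -0.022 to 0.038 for Flna, from -0.054 to 0.059 for Myh9, from -0.13 to 0.0043 for Tln1, from -0.078 to 0.014 for Tpm3, from -0.087 to 0.0018 for Srf and from -0.0091 to 0.079 for Parva. Tagln2 was at 0.0082 under quantile normalization, and Parva at -0.0076 under median-of-ratios scaling and -0.023 without WT replicates 3 and 4. Synpo2 and Des were not tested with TPM over 5.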

Other observations

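The same library often held the extreme of its group over many of the 33 genes. In Baf60a KO, replicate 1 held the lowest value of its group for 19 of the 33 genes, and replicate 3 the highest for 15. In WT, replicate 2 held the highest value for 21 of the 33 genes and replicate 3 the lowest for 14. Myh9 made up between 93.4% and 93.7% of Myh9, Myh10 and Myh11 transcripts in Baf60a KO and between 93.9% and 94.2% in WT, without overlap.

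Relative to Acta2, Cnn1 was higher in each Baf60a KO library, with a ratio of TPM between 0.0219 and 0.0268 in Baf60a KO and between 0.0162 and 0.0197 in WT. The 33 genes together took up 1.36% of all TPM in Baf60a KO and 1.23% in WT.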
